A study of Homo sapiens with 12 samples.

Results

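The genes described here encode the nuclear subunits of the oxidative phosphorylation complexes. They were chosen by symbol from the deposited gene table, by the family prefixes and names of the complex I to V subunits, with assembly factors and hyphenated symbols left out, and without regard to their values. The rule took 88 of the 17589 genes: 37 of complex I, 4 of complex II, 10 of complex III, 18 of complex IV (NDUFA4 and NDUFA4L2 counted there) and 19 of complex V. The subunits that the mitochondrial genome encodes were not analysed here.

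Oxidative phosphorylation is carried out in the inner mitochondrial membrane. Complexes I and II feed electrons from NADH and succinate into ubiquinone, complex III passes them on to cytochrome c, complex IV gives them to oxygen, and complex V (ATP synthase) makes ATP from the proton gradient that complexes I, III and IV build. In NK cells this respiration, alongside glycolysis, supplies energy for cytokine release and killing.

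RNA-seq had been carried out on YT, a human NK-like leukemia line, after lentiviral transduction under the hEF1A promoter and sorting of eGFP+ cells, with no target cell or antibody stimulus. CTRL cells carried eGFP alone, and hnCD16 cells a high-affinity, non-cleavable form of the Fc receptor CD16. In FR2 the outer and membrane parts of this receptor were fused to the signalling domains of DAP10 and CD3ζ. These replaced the natural CD16 tail, which hnCD16 kept, and FR1 held 2B4 as well. Each group had 3 libraries, 12 in all, with totals of 17714566 to 18729019 expected counts, and nothing in the labels says whether the replicates were separate cultures, so p-values measure the spread between these samples, which may be technical.

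Markers were read before the subunits. FCGR3A, the gene of the transgene's ectodomain, was at 0 counts in all of CTRL, while hnCD16 had 453 to 480, FR1 559 to 567 and FR2 1012 to 1132 (FCGR3B is a near-identical copy, so its reads may be split). The 12 NK cell markers summed to 48.2 to 56.5 CPM (counts scaled to the library's TMM size) across the 6 libraries of CTRL and hnCD16, against 4036 to 4369 CPM across the other 6. The killing-granule gene GZMB stood at 1.60 and 1.49 TPM (scaled for transcript length and depth) in CTRL and hnCD16 against 5551 and 5145 TPM in FR1 and FR2, while the T-cell receptor gene CD3D stood at 1321 and 1409 against 0.15 and 0.247 TPM. The 8 T cell markers in the table summed to 660 to 801 CPM in CTRL and hnCD16 and to 129 to 169 CPM in FR1 and FR2, and the 4 B cell markers to 9.19 to 14.7 and 38.3 to 47.4 CPM. Not every marker followed. KLRD1, NCR3, NKG7 and GZMA, 4 of the 12 NK cell markers, were at 1 CPM or more in every CTRL and hnCD16 library, against 10 in every FR1 and FR2 library. Of the 11 tested, 2 were lower in FR1 and FR2. The T cell markers CD3E and CD28 stayed at 1 CPM or more in every FR1 and FR2 library, and 1 of the 8 was higher there. By GZMB, CD3D and the marker sums the CTRL and hnCD16 libraries thus went against an NK-cell label, and the FR1 and FR2 libraries stood apart from them. Every difference below between these pairs of groups runs along that split, where the receptor tails and whatever else separated the cells cannot be told apart. In bulk RNA, fewer cells of a type and less RNA per cell cannot be told apart either.

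The summed TPM of the subunit genes differed little between the groups. Summed over the 88 genes, TPM was 34591 ± 319 (SD, n = 3) in CTRL and 36364 ± 929 in hnCD16, and FR1 held 33672 ± 481 and FR2 33352 ± 343, or 3.46%, 3.64%, 3.37% and 3.34% of all TPM. All 6 FR1 and FR2 libraries, the highest at 34095, lay just under the lowest CTRL library, at 34309. TPM is a share of each library, so this order holds for that scale only. On TMM-scaled counts the median log2 fold change of the tested subunit genes over CTRL was 0.22 in FR1 and 0.13 in FR2. The division between complexes was nearly the same throughout. Complex I held 34.1%, 33.9%, 33.5% and 33.3% of the summed TPM in CTRL, hnCD16, FR1 and FR2, complex IV held 23.9%, 23.9%, 24.2% and 24.6%, and complex V held 32.0%, 32.2%, 32.2% and 32.0%. Complex III stayed within 7.57% to 7.94% and complex II, the smallest, within 2.20% to 2.40%.

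Single genes spanned a wide range below that steady sum. Of the 88 genes, 81 passed the filter on low counts and were tested, and 73 of these had a mean of at least 100 TPM, with a median of 333 TPM. The most abundant were small structural subunits of complex IV, COX7C at 1455 TPM and COX6A1 at 1261 TPM, then ATP5F1B, the catalytic beta subunit of ATP synthase, at 1232 TPM. COX6B2, known as the testis form of COX6B, was the lowest tested gene at 1.21 TPM. The next lowest was NDUFV3 at 26.8 TPM. The 7 genes left out were isoforms of restricted tissues or near copies of other members: COX4I2, COX7A1, COX7B2 and COX8C had at most 3 counts in any library, UQCRHL at most 9 and ATP5MGL at most 14. NDUFA4L2, a hypoxia-linked relative of NDUFA4, had 0, 4 and 0 counts in CTRL and 3, 2 and 0 in hnCD16, against 8, 8 and 4 for FR1 and 9, 10 and 12 for FR2. It was not tested with the filter; without the filter its pooled log2 fold change was 2.50. UQCRHL and ATP5MGL are near copies of UQCRH and ATP5MG, and many members have processed pseudogenes. The treatment of reads that such copies share is not given in the sources used here, so their split is uncertain.

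FR1 and FR2 together were compared with CTRL and hnCD16 together to ask how the fused activating tails went with subunit expression. A gene was called when edgeR's quasi-likelihood test gave an adjusted p of at most 0.05 (Benjamini-Hochberg over all 13657 tested genes) and the log2 fold change was at least 1 in size. Among the 81 tested members 4 were called, 4.94%, all of them lower in FR1 and FR2: SDHC, ATP5MC1, NDUFS3 and NDUFB10. Over all tested genes 37.9% were called, and over the 4908 genes in the members' CPM range 24.1%. The median absolute log2 fold change was 0.315 for the members against 0.687 for all tested genes and 0.489 for the 3159 genes of like CPM and length. The 95% interval lay inside -1 to 1 for 75 members and inside -0.5 to 0.5 for 49.

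**Figure D1:**
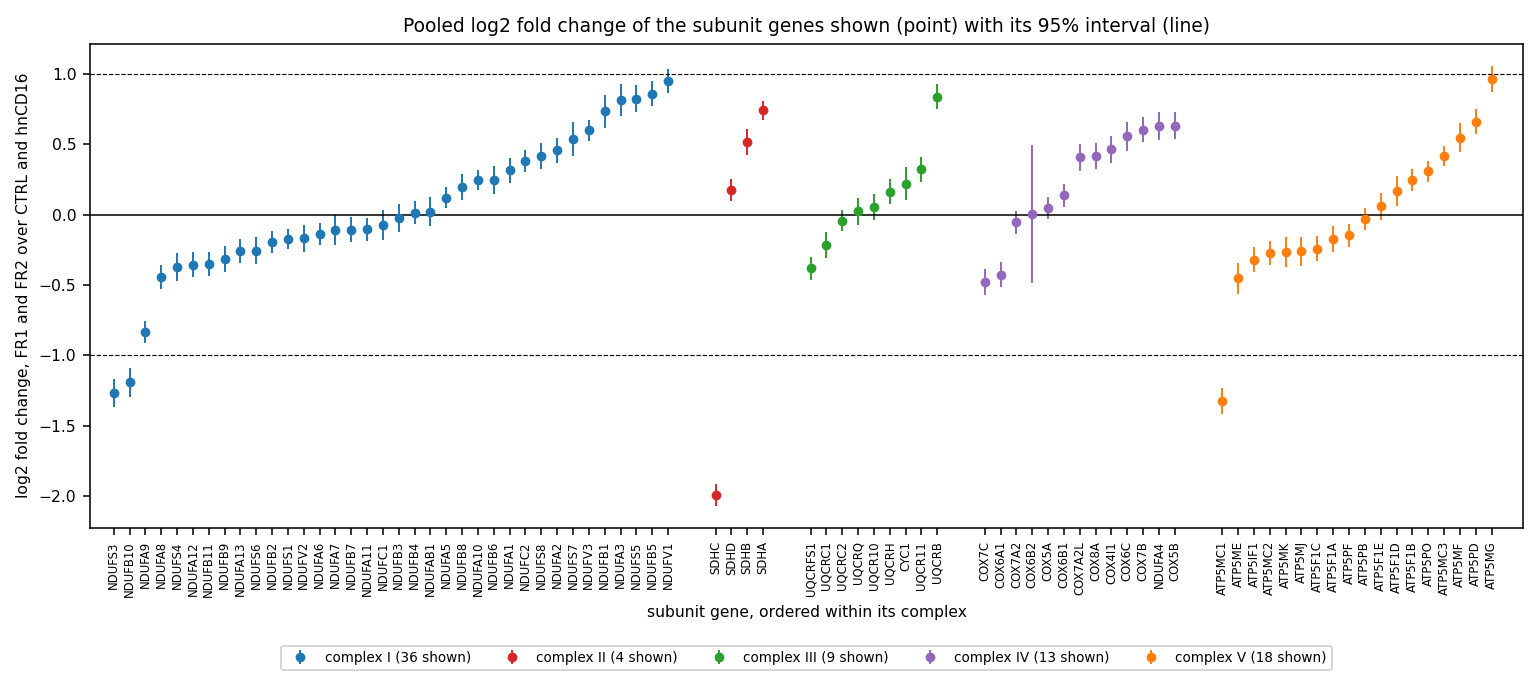
Log2 fold change (y axis) of FR1 and FR2 over CTRL and hnCD16 for the subunit genes shown, ordered within their complex along the x axis; points are estimates from 6 libraries against 6, vertical lines are 95% intervals and dashed lines mark a log2 fold change of 1 either way. Most genes lie between the dashed lines, with SDHC at -1.99 farthest out, and ATP5MC1, NDUFS3 and NDUFB10 the others below the lower one.

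By the adjusted p alone, 38 members were higher in FR1 and FR2 and 30 were lower, against 40.9% and 43.3% of all tested genes and 46.6% and 43.1% of genes of like CPM and length. The median log2 fold change of the members was 0.05, beside -0.03 for all tested genes, and by complex it was -0.02 for I, 0.34 for II, 0.05 for III, 0.41 for IV and -0.09 for V. With library size as the only scaling the split became 33 higher and 37 lower and the members' median -0.06, as the median of all genes moved by -0.10. On log2(TPM + 1) with limma the split was 31 and 42. Library size shifts all genes alike, so that change in the counts is not particular to the members. The same 4 genes were called with RLE scaling, with library size and with limma on TPM at both pseudocounts.

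Complex II showed the largest single difference. Its SDHA flavoprotein and SDHB iron-sulfur subunit oxidise succinate and pass electrons on, and SDHC and SDHD anchor them in the membrane, where ubiquinone is reduced. SDHC lies at chr1:161314381-161363206 on the plus strand (GRCh38). Its CPM was 190.1, 179.1 and 178.2 in CTRL and 217.5, 209 and 198 in hnCD16, but 52.1, 53.9 and 50.9 in FR1 and 45.7, 45.8 and 46.8 in FR2. No library of FR1 or FR2 came near the others, and the pooled level was 3.97-fold lower (log2 fold change -1.99, SE 0.04, adjusted p = 8.74e-19).

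The other 3 genes of the complex did not follow. SDHA rose in FR1 and FR2 by 0.74 (log2, adjusted p = 2.00e-13), SDHB by 0.51 (adjusted p = 4.31e-09) and SDHD by 0.18 (adjusted p = 0.000293), the last not past the threshold with limma on TPM. In TPM, which allows levels of different genes to be compared, SDHC stood level with its partner anchor SDHD in CTRL and hnCD16, at ratios of 0.916 ± 0.03 and 0.828 ± 0.02 (SD, n = 3), and far under it in FR1 and FR2, at 0.181 ± 0.006 and 0.168 ± 0.003. SDHC was thus the scarcest mRNA of the complex in FR1 and FR2, at 53.5 and 45.3 TPM. SDHA held that place in CTRL and hnCD16, at 70.0 and 55.1 TPM.

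**Figure D2:**
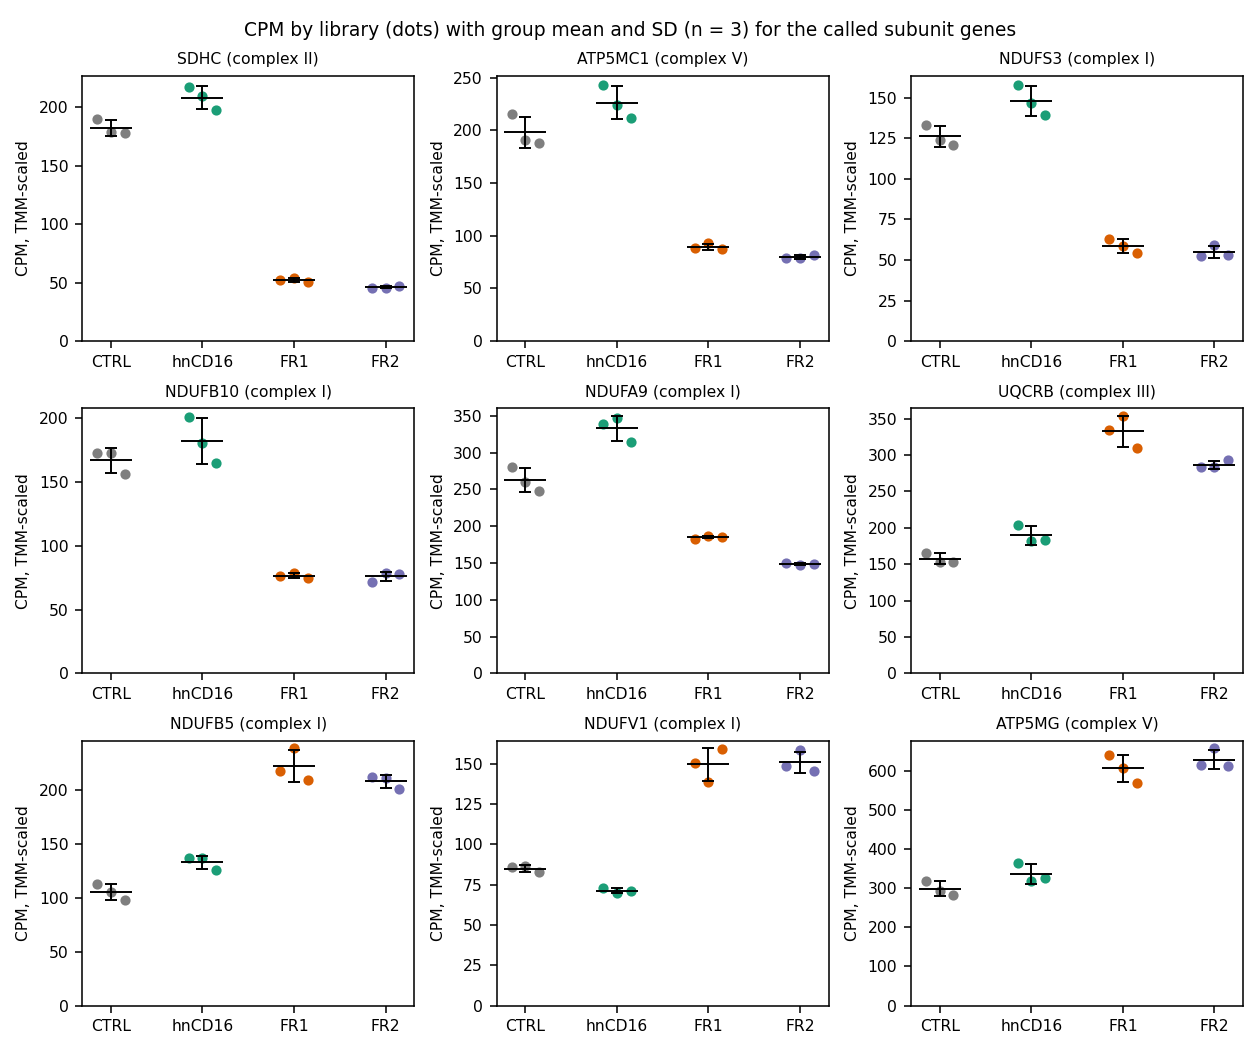
CPM (y axis, from 0, TMM-scaled) of the 9 subunit genes called in at least 1 of the 7 comparisons, by group (x axis); dots are libraries, the wide bar is the group mean and the whisker its SD (n = 3). SDHC, ATP5MC1, NDUFS3, NDUFB10 and NDUFA9 are lower in all 6 FR1 and FR2 libraries than in the other 6, and UQCRB, NDUFB5, NDUFV1 and ATP5MG are higher.

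Complex I held a pair of the 4 called genes. NDUFS3 is a core subunit of its peripheral, NADH-oxidising arm, and NDUFB10 a supernumerary subunit of the membrane arm. NDUFS3 (chr11:47565336-47584562, plus strand) had CPM of 133, 124 and 121 in CTRL and 158, 147 and 139 in hnCD16, against 62.7, 58.3 and 54.4 in FR1 and 52.4, 59.3 and 53.3 in FR2. Its level was 2.41-fold lower (log2 -1.27, SE 0.05, adjusted p = 2.90e-14). NDUFB10 (chr16:1959538-1961975, plus strand) ran from 156 to 173 CPM in CTRL and 165 to 201 in hnCD16, and from 74.7 to 78.5 in FR1 and 72.0 to 78.9 in FR2, a level 2.28-fold lower (log2 -1.19, SE 0.05, adjusted p = 7.64e-14). NDUFA9, a supernumerary subunit near the junction of the arms, fell by 0.83 on the log2 scale (adjusted p = 2.85e-13), short of the fold threshold.

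Genes of the same arms moved the other way. NDUFV1, whose protein binds NADH and the flavin, had CPM of 85.9, 86.4 and 82.7 in CTRL and 73.1, 70.0 and 71.1 in hnCD16, where FR1 had 151, 139 and 159 and FR2 149, 159 and 146. No library of one pair overlapped the other pair. That was a rise of 0.95 (log2, SE 0.04, adjusted p = 1.08e-13). The membrane-arm gene NDUFB5 rose by 0.86, and the supernumerary gene NDUFS5 by 0.82. Among the other core genes of the iron-sulfur and quinone-binding parts, NDUFS7 rose by 0.53 and NDUFS8 by 0.42 (adjusted p = 9.79e-08 and 7.40e-08). NDUFS1 and NDUFV2, which carry iron-sulfur clusters near the NADH site, each fell by 0.17 (adjusted p = 0.00012 and 0.00219). Core genes of this complex thus moved in both directions, from -1.27 to 0.95. NDUFAB1, the mitochondrial acyl carrier protein that also sits in complex I, did not pass the test (log2 0.02, adjusted p = 0.679).

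For complex III the differences were small apart from 1 gene. UQCRB, a small subunit beside the ubiquinone site, rose by 0.84 (log2, SE 0.04, adjusted p = 1.55e-12), from 152 to 166 CPM in CTRL and 182 to 204 in hnCD16 up to 310 to 353 in FR1 and 283 to 293 in FR2. UQCR11 rose by 0.32, and CYC1, the cytochrome c1 subunit, and UQCRH, the hinge subunit, by 0.22 and 0.16. This last pair did not pass with library size only or with limma on TPM. UQCRFS1, the Rieske iron-sulfur protein, fell by 0.38 (adjusted p = 5.34e-08) and the core subunit UQCRC1 by 0.22 (adjusted p = 0.000177). Its partner UQCRC2 gave -0.04 (adjusted p = 0.266).

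Complex IV had no called gene, and 10 of its 13 tested genes had a positive log2 fold change. That compares with 6658 of all 13657 tested genes and 1630 of the 3159 genes of like CPM and length. The 10 include COX5A and COX6B2, which did not pass the test, and COX6B1, which turned negative with limma on TPM. The nuclear subunits of complex IV surround catalytic ones that the mitochondrial genome encodes. COX5B and NDUFA4 each rose by 0.63 (adjusted p = 3.50e-10 and 4.82e-10), COX7B by 0.60, COX4I1, the ATP-sensing subunit in its ubiquitous form, by 0.46, COX8A by 0.42 and COX7A2L, linked to supercomplexes, by 0.41. The most abundant genes of the complex went down: COX7C fell by 0.48 and COX6A1 by 0.43 (adjusted p = 1.13e-08 and 3.73e-08). COX7C had CPM of 513, 486 and 513 in CTRL and 651, 572 and 574 in hnCD16, against 392, 408 and 354 in FR1 and 387, 400.0 and 426 in FR2. No FR1 or FR2 library overlapped the others for this gene. COX6B1 rose by 0.14 (adjusted p = 0.00398), a value of -0.0019 with limma on TPM. COX5A and COX7A2 did not pass the test (adjusted p = 0.245 and 0.176), nor did COX6B2 (0.985), whose 95% interval was wide, from -0.49 to 0.50.

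In complex V the called gene lay among the genes for subunit c. This small protein forms the rotor ring of ATP synthase, and ATP5MC1, ATP5MC2 and ATP5MC3 encode the same mature peptide behind different import sequences. ATP5MC1 (chr17:48892765-48895871, plus strand) had CPM of 215, 191 and 188 in CTRL and 243, 224 and 212 in hnCD16, and 88.7, 92.8 and 87.3 in FR1 and 78.9, 78.7 and 81.7 in FR2. That was 2.50-fold lower (log2 -1.32, SE 0.04, adjusted p = 4.02e-15). ATP5MC2 fell by 0.27 (adjusted p = 5.67e-06), while ATP5MC3 (chr2:175176258-175181710, minus strand) rose by 0.41 (adjusted p = 2.48e-09), with 451 to 485 CPM in CTRL and 549 to 606 in hnCD16, below the 724 to 756 of FR1 and the 632 to 665 of FR2.

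The make-up of the subunit c message changed with these. In TPM, ATP5MC1 gave 36.3% ± 0.69 (SD, n = 3) of the 3 genes' sum in CTRL and 36.4% ± 0.27 in hnCD16, but 19.3% ± 0.71 in FR1 and 18.7% ± 0.69 in FR2. ATP5MC3 went from 17.7% and 19.3% to 32.7% and 31.3%, and ATP5MC2 stayed the largest at 44.3% to 50.1%. The ratio of ATP5MC3 to ATP5MC1 was 0.488 and 0.531 in CTRL and hnCD16 and 1.69 and 1.68 in FR1 and FR2. The summed TPM of the 3 genes was also lower, at 2010 ± 35.6 and 2068 ± 56.4 in CTRL and hnCD16 and 1468 ± 20.1 and 1364 ± 18.8 in FR1 and FR2.

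**Figure D3:**
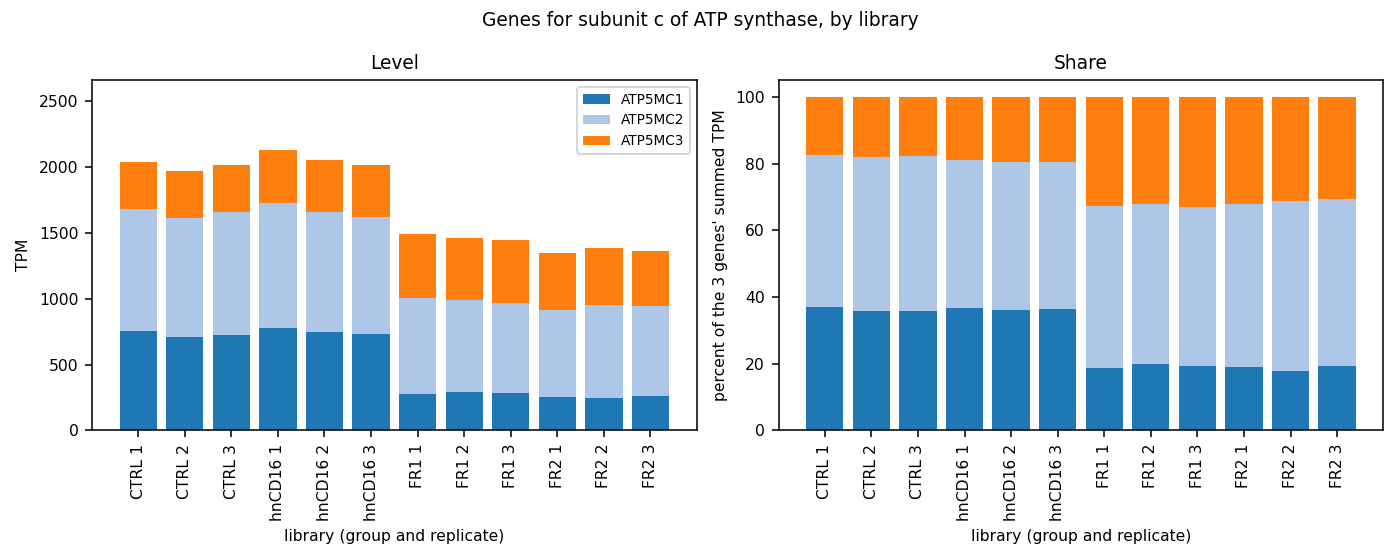
Level (left, TPM) and share (right, percent of the 3 genes' summed TPM) of the subunit c genes ATP5MC1, ATP5MC2 and ATP5MC3 in each library (x axis, group and replicate). The ATP5MC1 share drops from 35.9% to 37.1% in the CTRL libraries to 18.6% to 20.02% in the FR1 libraries, and the sum of the 3 falls from about 2010 to 1468 TPM in the group means.

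Other genes of ATP synthase spread around no change. ATP5MG, a membrane subunit at the dimer interface, rose by 0.96 (log2, SE 0.04, adjusted p = 5.22e-13), from 283 to 320 CPM in CTRL and 318 to 364 in hnCD16 to 570 to 640 in FR1 and 614 to 659 in FR2. ATP5PD, of the peripheral stalk, rose by 0.66. The catalytic-head genes went apart by little: ATP5F1B, the beta subunit, rose by 0.25, and ATP5F1A, the alpha subunit, and ATP5F1C, the gamma subunit, fell by 0.18 and 0.24. ATP5ME fell by 0.45 and ATP5IF1, which encodes the inhibitor of the enzyme's reverse reaction, by 0.32 (adjusted p = 1.16e-06).

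Each receptor group was next set against each of the others to see whether a difference was shared by FR1 and FR2. These 4 comparisons share libraries, so they are given side by side and not counted as separate evidence. FR1 against hnCD16 gave 5 called members of 81 (38.3% of all genes), with SDHC, ATP5MC1, NDUFS3 and NDUFB10 lower and NDUFV1 higher. FR2 against hnCD16 gave 6 (39.5% of all genes), the same 5 and NDUFA9, lower at -1.16. FR1 against CTRL gave 7 (38% of all genes), the 4 lower ones with NDUFB5, UQCRB and ATP5MG higher, and FR2 against CTRL gave 5 (38.2% of all genes), the 4 lower ones and ATP5MG. SDHC, ATP5MC1, NDUFS3 and NDUFB10 were therefore called lower in all 4 (4.94% of members, against 16.4% of all tested genes and 5.95% of genes of like CPM and length), and 9 members in at least 1 (11.1%, against 46.4% of all tested genes).

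The log2 fold changes of the 4 ran close together. For FR1 against hnCD16, FR2 against hnCD16, FR1 against CTRL and FR2 against CTRL, in that order, SDHC gave -1.99, -2.18, -1.80 and -1.99, and ATP5MC1 gave -1.34, -1.5, -1.14 and -1.31. NDUFS3 gave -1.34, -1.43, -1.11 and -1.20, and NDUFB10 -1.25, -1.26, -1.13 and -1.13. The calls of higher members sat at the threshold. ATP5MG in FR1 against CTRL was at 1.02 and went to 0.99, 0.98 and 0.97 without CTRL replicate 2, CTRL replicate 3 or FR1 replicate 1, which ended its call. NDUFB5 in FR2 against CTRL was at 0.98 and became called at 1.03 without CTRL replicate 1 and at 1.0 without FR2 replicate 3, and NDUFS5 in FR1 against CTRL, at 0.94, became called at 1.0 without CTRL replicate 1. With library size as the only scaling the calls of NDUFB5, UQCRB, ATP5MG and, against hnCD16 in FR1, NDUFV1 were lost, at 0.88, 0.89, 0.83 and 0.99, as was that of ATP5MG in FR2 against CTRL, at 0.95.

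With the adjusted p alone, FR1 against hnCD16 gave 32 members higher and 32 lower (39.1% and 40% of all tested genes, 44.3% and 40.6% of genes of like CPM and length) and FR2 against hnCD16 29 and 37 (38.7% and 41.4%, and 39.7% and 46.8%). FR1 against CTRL gave 43 and 16 (39.1% and 40.8%, and 50% and 36.2%), and FR2 against CTRL 40 and 20 (38.5% and 41.7%, and 45.2% and 41.6%). The splits against CTRL depended on the scaling. They were 34 and 32 for FR1 and 33 and 29 for FR2 with library size, and 34 and 37 and 31 and 38 with limma on log2(TPM + 1). In all 4 comparisons 27 members were higher (33.3%, against 31% of all tested genes and 34.1% of genes of like CPM and length) and 15 lower (18.5%, against 32.9% and 29.8%). The share that was higher was thus near the background, and none passed in all 4 with differing directions. Those that were lower in all 4 included 7 genes of complex I (NDUFA8, NDUFA9, NDUFA12, NDUFA13, NDUFB10, NDUFB11 and NDUFS3) and 4 of complex V (ATP5MC1, ATP5MC2, ATP5ME and ATP5IF1). Complex I had more genes higher than lower in all 4, among them NDUFA1, NDUFA2, NDUFA3, NDUFB1, NDUFB5, NDUFC2, NDUFS5, NDUFS7, NDUFS8, NDUFV1 and NDUFV3. In complex V, ATP5MC3, ATP5MF, ATP5MG and ATP5PD were higher. Those that were higher also included 7 of complex IV (COX4I1, COX5B, COX6C, COX7A2L, COX7B, COX8A and NDUFA4), where COX6A1 and COX7C were lower.

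Within the pairs, hnCD16 against CTRL asks what the receptor without a fused tail went with. No member was called by edgeR (0.527% of all genes), nor by DESeq2, and all log2 fold changes lay between -0.25 and 0.38. At an unadjusted p under 0.05 there were 69 members (49.4% of all tested genes), none of them with a log2 fold change of 1. By the adjusted p alone 59 members were higher in hnCD16 and 3 lower (NDUFV1, SDHA and ATP5F1D), against 21.6% and 21.4% of all tested genes and 52% and 21.7% of genes of like CPM and length. The members' median was 0.22 and 75 of 81 lay above 0, while the median was -0.01 for all tested genes and 0.17 for genes of like CPM and length. ATP5F1A and SDHD were the highest of the named genes, at 0.38 and 0.37, and NDUFV1 the lowest, at -0.25 (adjusted p = 0.0018).

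This small shift depended on the scaling. With library size alone, which moved the median of all genes by -0.11, 27 members were higher and 4 lower with a median of 0.11, and with limma on log2(TPM + 1) 24 were higher and 6 lower. Above the median of all genes the members' median lay by 0.23 with TMM and by 0.16 with limma on log2(TPM + 1). Library size moves both medians together and leaves that difference fixed. The TMM factors were 1.05 to 1.11 in CTRL and 0.985 to 1.02 in hnCD16, and the libraries differed within each group. The members' median deviation from their mean over all libraries (log2 CPM) was -0.05, -0.14 and -0.22 in the 3 CTRL libraries and 0.16, 0.08 and 0.003 in the 3 hnCD16 libraries. These deviations come from the same scaled counts as the shift, so they only show it library by library. The TMM factors moved with the result, and their part in it was not tested.

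FR1 against FR2 asks about the 2B4 domain, which FR1 carries and FR2 lacks. The groups also differed in receptor message, with 559 to 567 FCGR3A counts in FR1 and 1012 to 1132 in FR2, and the domain and that level cannot be told apart. No member was called by edgeR (1.93% of all genes) or DESeq2, and the log2 fold changes lay between -0.22 and 0.32, with 51 of 81 above 0 and a median of 0.05. At an unadjusted p under 0.05 there were 23 members (43.8% of all tested genes), none with a log2 fold change of 1. By the adjusted p alone 17 were higher in FR1 and 4 lower (NDUFA2, NDUFA11, NDUFC2 and SDHA), against 17.7% and 18.5% of all tested genes and 34.1% and 15.1% of genes of like CPM and length. NDUFA9 had the highest value, 0.32 (adjusted p = 0.00017), with 183, 186 and 186 CPM in FR1 and 150.2, 147 and 149 in FR2. NDUFAB1 followed at 0.28, and SDHA was lower at -0.18 (adjusted p = 0.0039). The counts moved with single libraries: 10, 11 and 11 members were higher without FR1 replicate 1, FR1 replicate 2 or FR2 replicate 1, and 2 were lower without FR1 replicate 2, FR1 replicate 3 or FR2 replicate 2. With library size alone 13 were higher and 11 lower.

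**Figure D4:**
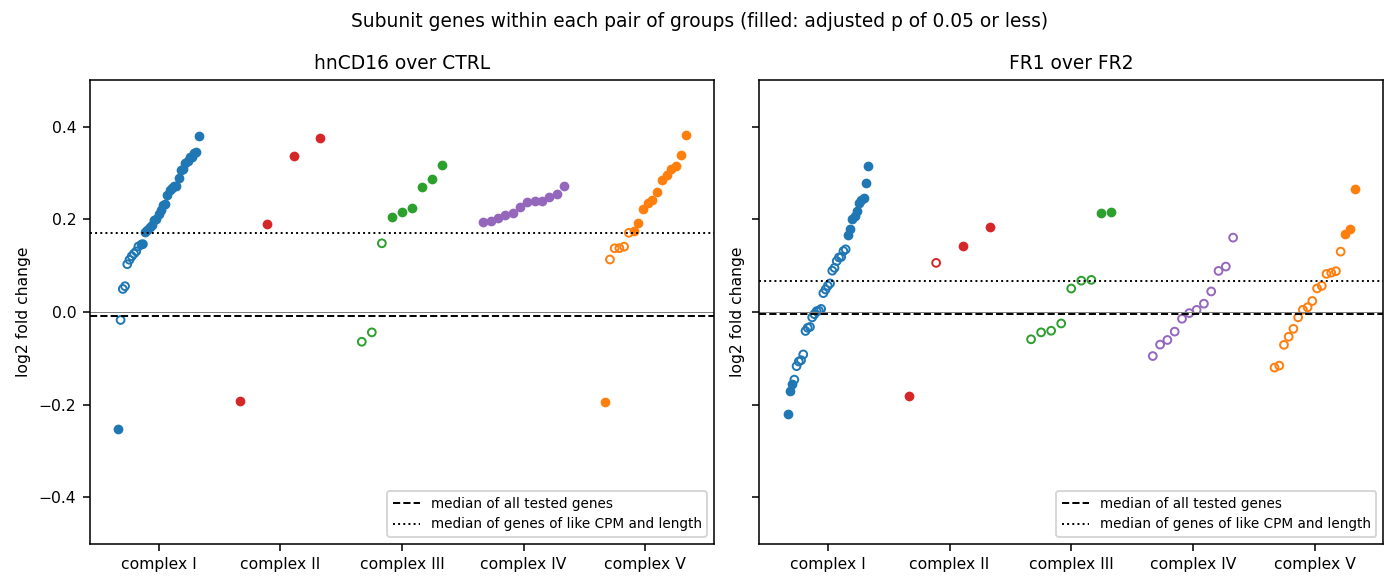
Log2 fold change (y axis) of the subunit genes by complex (x axis) for hnCD16 over CTRL (left) and FR1 over FR2 (right), with COX6B2 left out for its wide error; filled points had an adjusted p of at most 0.05, the dashed line is the median of all tested genes and the dotted line that of genes of like CPM and length. On the left most points lie above 0 around 0.22, and on the right they lie on both sides of 0.

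Genes whose libraries did not overlap in CPM were counted as well. Of the 81 members, 28 were higher and 15 lower in all 6 FR1 and FR2 libraries than in all 6 others, against 31.4% and 33% of all tested genes. For hnCD16 against CTRL the numbers were 55 and 3, against 22.9% and 24.8%, and for FR1 against FR2 27 and 6, against 25.1% and 25%. Overlap was not counted for genes of like CPM and length. By the adjusted p, 52% of those genes were higher in hnCD16 than in CTRL, and the members' shift there depended on the scaling.

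Transcript shares were compared for the 51 members with more than 1 tested transcript, again between FR1 and FR2 and the other groups. A gene was called at an adjusted p of at most 0.05 with a shift of at least 10 percentage points in a transcript's share, which 2 members met, beside 9.12% of all 9606 genes tested. Both encode small accessory subunits of complex I. NDUFS5 (chr1:39026318-39034636, plus strand) divided between a pair of RefSeq transcripts: NM_004552 held 46.5% ± 1.4 (SD, n = 3) in CTRL and 45.8% ± 1.4 in hnCD16, but 1.44% ± 0.36 in FR1 and 0.884% ± 0.13 in FR2 (adjusted p = 4.08e-16, edgeR's test of differential usage). NM_001184979 took the rest, up to 99.1% in FR2, while the gene as a whole rose by 0.82. NDUFC1 (chr4:139266880-139302551, minus strand) did not pass the test of its total level (log2 -0.07, adjusted p = 0.178, 95% interval -0.18 to 0.03), while NM_001184989 went from 88.2% ± 4.7 and 85.8% ± 2.5 in CTRL and hnCD16 to 56.5% ± 1.6 and 49.6% ± 12.5 in FR1 and FR2 (adjusted p = 1.09e-05). FR2 replicate 2 stood lowest there, at 35.7%, and 2 members were called with each library left out in turn, but 6 where a transcript needed at least 10 counts in every library. Shares of overlapping transcripts are estimates from the reads that tell them apart, and strand use in counting is not given in the sources used here.

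**Figure D5:**
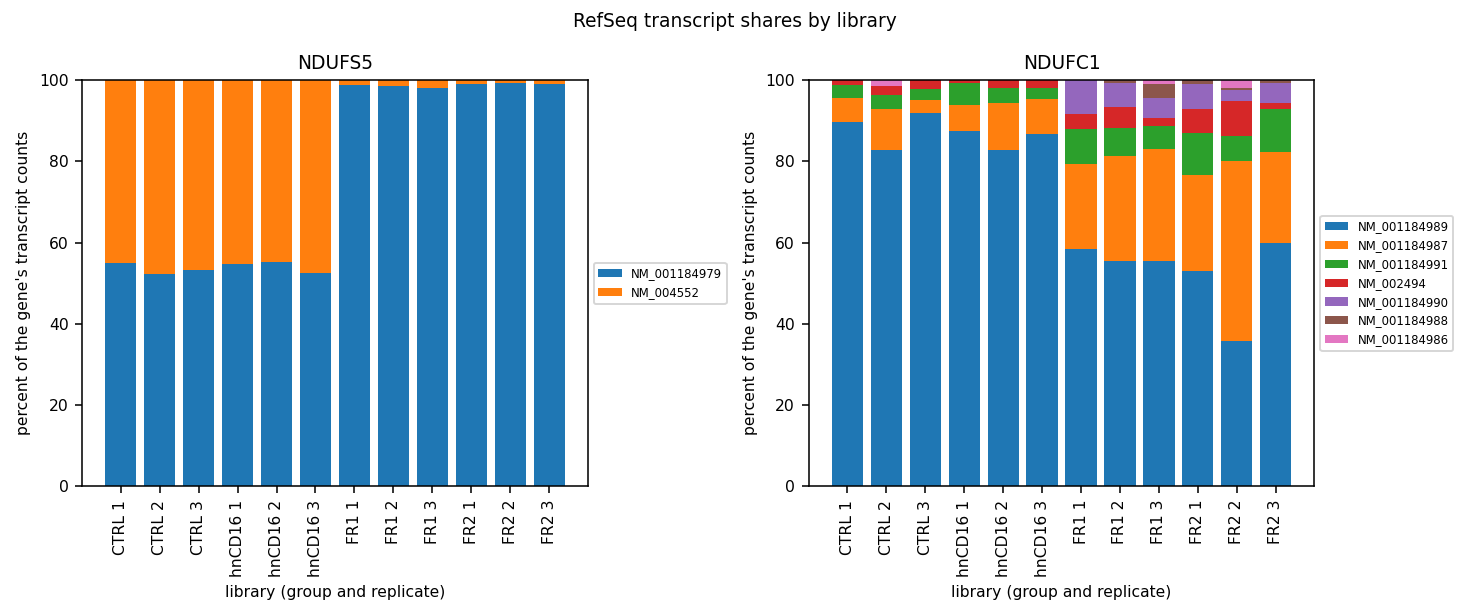
Share of each RefSeq transcript (y axis, percent of the gene's transcript counts) in each library (x axis, group and replicate) for NDUFS5 and NDUFC1. NM_004552 of NDUFS5 is near 46% in the CTRL and hnCD16 libraries and near 1% in the FR1 and FR2 libraries, and NM_001184989 of NDUFC1 drops from above 82% to between 35.7% and 60.0%.

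Many subunit genes are known targets of the transcription factor NRF1 and of the ETS factor GABP (NRF2). Promoters were read as the 250 bases before the start that RefSeq gives (GRCh38.p14), for the 71 of 88 members that its table holds, and searched on both strands for GCGCANGCG (NRF1) and CCGGAAG (ETS). The NRF1 letters read almost alike on both strands, so 1 place can match on both. They were in 21 of 71 member promoters (29.6%) and in 7.02% of all 27305 promoters, the ETS letters in 17 (23.9%) and in 8.82%, and 4 members held both. Among members that rose in FR1 and FR2 and are in the table, 6 of 27 held the NRF1 letters and 9 of 27 the ETS letters. Among those that fell it was 12 of 28 and 7 of 28. The windows of the called genes NDUFS3 (chr11:47578824-47579073), NDUFB10 (chr16:1959288-1959537) and ATP5MC1 (chr17:48892537-48892786), which fell together, are given with that of NDUFA9 (chr12:4648864-4649113), which fell most after them, all on the plus strand. Capitals mark a match, of which there are an ETS pair in NDUFS3 and an NRF1 match in NDUFA9. The NDUFS3 window lies within the longer GENCODE gene. SDHC was not in the table.
NDUFS3: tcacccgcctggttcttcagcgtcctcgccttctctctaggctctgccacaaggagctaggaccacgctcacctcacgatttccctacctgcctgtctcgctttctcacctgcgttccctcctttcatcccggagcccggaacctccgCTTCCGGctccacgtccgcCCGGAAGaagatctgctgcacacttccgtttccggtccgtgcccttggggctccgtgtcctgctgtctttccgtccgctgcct
NDUFB10: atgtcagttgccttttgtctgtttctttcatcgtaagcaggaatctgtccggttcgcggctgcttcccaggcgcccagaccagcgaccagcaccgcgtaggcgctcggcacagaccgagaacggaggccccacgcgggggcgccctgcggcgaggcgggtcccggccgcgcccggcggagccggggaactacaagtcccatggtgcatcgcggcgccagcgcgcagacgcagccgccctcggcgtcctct
ATP5MC1: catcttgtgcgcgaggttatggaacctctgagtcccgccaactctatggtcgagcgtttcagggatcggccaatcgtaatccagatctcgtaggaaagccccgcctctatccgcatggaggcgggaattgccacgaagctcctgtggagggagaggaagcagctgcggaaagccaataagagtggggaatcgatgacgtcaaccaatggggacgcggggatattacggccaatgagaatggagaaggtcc
NDUFA9: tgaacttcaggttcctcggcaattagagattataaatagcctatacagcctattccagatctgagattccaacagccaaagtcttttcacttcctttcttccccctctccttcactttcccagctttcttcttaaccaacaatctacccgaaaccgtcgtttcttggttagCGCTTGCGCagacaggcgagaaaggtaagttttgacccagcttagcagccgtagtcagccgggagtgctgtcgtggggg

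The rest of the pathway was read from lists of assembly factors, electron carriers and regulators. Over all tested genes 40.9% were higher and 43.3% lower by the adjusted p, which is the background for each count here. Of 18 complex I assembly factors 4 were higher and 11 lower in FR1 and FR2, with NDUFAF2, which acts late in assembly, at -1.60, DMAC1 at -1.38, ECSIT at -1.07 and TMEM126B at 1.11. Of 42 assembly factors of complexes II to V, 22 were higher and 14 lower. COX16, which helps mature the complex IV subunit COX2, had the largest change, from 104 ± 5.1 and 116 ± 3.5 TPM in CTRL and hnCD16 to 8.94 ± 0.38 and 10.98 ± 0.33 TPM in FR1 and FR2 (log2 -3.33, SE 0.05, adjusted p = 8.59e-20). ATPAF1, a chaperone for the beta subunit of ATP synthase, rose by 2.02, PET117 by 1.47 and HIGD2A by 1.29.

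Of 18 tested carriers and other entry points for electrons, 7 were higher and 8 lower, near the background of 40.9% and 43.3%. SQOR, which oxidises sulfide and reduces ubiquinone, rose by 5.89 (log2, SE 0.15, adjusted p = 5.19e-17), from 0.317 and 0.54 TPM in CTRL and hnCD16 to 20.8 and 24.7 in FR1 and FR2. GPD2, the mitochondrial glycerol-3-phosphate dehydrogenase, fell by 2.15. The ubiquinone synthesis genes COQ5, PDSS1 and COQ3 fell by 1.68, 1.43 and 1.16, and COQ2, of the same pathway, rose by 1.29.

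Of 10 nuclear regulators tested, 4 were higher and 6 lower, against 40.9% and 43.3% of all tested genes. PPARGC1A, the coactivator that drives mitochondrial biogenesis, rose by 5.34 but stayed low at 2.22 and 1.36 TPM in FR1 and FR2, against 0.147 and 0.0533 in CTRL and hnCD16. ESRRA, a nuclear receptor that works with it, rose by 1.86 and HIF1A by 1.5, and MYC fell by 2.34, from 137 ± 1.6 and 99.9 ± 1.4 TPM to 20.2 ± 0.42 and 22.2 ± 1.4. EPAS1 had at most 1 count in any library and was not tested. Of 15 genes for mitochondrial DNA transcription and copying, 3 were higher and 10 lower against the same background, with TOP1MT at -2.59, TFB1M at -1.38, MTERF1 at -1.07 and MTERF2 at 3.20.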

How the data were processed

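RNA-seq of 12 libraries, 3 in each of 4 groups, was analysed from the deposited gene and transcript tables. Ribosomal RNA was removed by the authors, although the labels name oligo(dT) beads too. They cleaned reads with SOAPnuke, aligned to GRCh38.p13 by HISAT2 2.1.0 and estimated abundance by RSEM 1.3.1. The submitters' processing notes also list Bowtie2 2.3.4.3 and DESeq2 1.4.5. Expected counts, as deposited, are estimates per gene or transcript without normalization, and the authors deposited TPM beside them. Strand use and the treatment of reads with several matches are not given in the sources used here.

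Expected counts were rounded. Genes were filtered with filterByExpr, scaled by TMM and tested with edgeR 4.0.16 (quasi-likelihood, 1 fit of the 4 groups, R 4.3.3) over 13657 genes with Benjamini-Hochberg adjustment. A call needed an adjusted p of at most 0.05 and a log2 fold change of at least 1 in size. FR1 and FR2 were also compared as a pair, by their mean log2 level, with CTRL and hnCD16. Transcript shares were tested with diffSpliceDGE. CPM values are TMM-scaled, and the range of 17714566 to 18729019 counts limits genes of few counts. No replicate pair agreed within sampling noise. The scripts were tested on simulated data. Coordinates are from GENCODE (GRCh38).

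The genes named were the called members, core, regulatory and paired-isoform genes, the most abundant and most changed of each complex, the called genes of the pathway lists (up to 4 by size; COQ3 and COQ2 were added after their values were seen), and members with changed transcript usage. The values of 1 member are counted but not reported here. The members and lists were chosen with earlier results of these data known. The alternatives were RLE scaling, library size only, 2 other filters, DESeq2 1.42.0, limma 3.58.1 applied to TPM after log2 with a pseudocount of 1 or 0.1, only the groups compared, a replicate block, leaving out each library, no fold threshold and 2 other transcript rules. Gene sets of like CPM, or of like CPM and length, were added after seeing the data.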

Additional observations from a re-analysis of the deposited data

How the results depend on the processing

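The 46 named subunit genes were recomputed under 20 alternatives, and 38 of them kept their direction and their side of the adjusted p of 0.05 in the pooled comparison throughout. The exceptions came with library size only and with limma on TPM, which moved the median of all genes by -0.10 and -0.08. With both pseudocounts of limma (1 and 0.1), COX5A reversed to -0.091, NDUFAB1 to -0.11 and COX6B1 to -0.0019. COX6B1 lost the adjusted p with library size only, SDHD with limma, and CYC1 and UQCRH with both, and COX7A2 and UQCRC2 gained it with both.

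Without the fold threshold the called members numbered 64 (FR1 against hnCD16), 66 (FR2 against hnCD16), 59 (FR1 against CTRL), 60 (FR2 against CTRL), 62 (hnCD16 against CTRL), 21 (FR1 against FR2) and 68 (pooled). FR1 against CTRL fell from 7 to 4 called with library size only and with limma at both pseudocounts. For hnCD16 against CTRL, 27 members were higher with library size only and 24 and 23 with limma (log2(TPM + 1) and log2(TPM + 0.1)), 6 were lower with limma, and the median was 0.11 with library size and 0.071 with limma at both. For FR1 against FR2, 27 were higher and 7 lower with only the groups compared, 11 lower with library size, 7 with limma on log2(TPM + 1), and the median was -0.015 with library size. The pooled median was -0.057 with library size and -0.087 and -0.091 with limma. Changed transcript usage went from 2 to 6 members with at least 10 counts of a transcript in every library. The cause was not tested, apart from the shift of all genes under library size.

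Leaving out a library gave 5 to 6, 6 to 7, 7 to 9, 5 to 7, 0, 0 and 4 to 5 called members in the order above. In the pooled comparison the member added was NDUFA4L2, which then passed the filter on low counts, and it was also added with DESeq2 and with no filter. It was not added without FR2 replicate 2 or FR2 replicate 3. ATP5MGL was likewise added in FR1 against CTRL without CTRL replicate 2, FR1 replicate 1 or FR2 replicate 2, at 1.55, 1.39 and 1.17. For FR1 against FR2 the range was 10 to 18 higher and 2 to 5 lower, for hnCD16 against CTRL 40 to 68 higher and 2 to 3 lower.

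Replicate numbers are shared by the groups, and the libraries were treated as unpaired because in no comparison did every same-numbered pair pass 0.1. For hnCD16 against CTRL same-numbered deviations correlated from 0.02 to 0.40, with a mean of 0.25 against -0.13 for differing numbers. In the other comparisons the same-numbered mean ran from -0.03 to 0.09. With a replicate block, 5, 6, 7, 5, 0, 0 and 4 members were called, 63 were higher and 3 lower for hnCD16 against CTRL, 20 and 4 for FR1 against FR2, 38 and 31 in the pooled comparison, and 2 changed transcript usage.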

Other observations

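The order of the subunit genes by level differed between the pairs of groups. In CTRL and hnCD16 the most abundant were COX7C, at 1650 to 1910.3 TPM, and COX6A1, at 1416 to 1575 TPM, which did not overlap. In FR1 and FR2 the first places went to ATP5F1B, at 1205 to 1333 TPM, and NDUFS5, at 1224 to 1298 TPM, whose libraries overlapped, and COX7C and COX6A1 came after them.

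A pair of partner subunits kept unequal steps, in a ratio chosen after its values were seen. The TPM ratio of the alpha to the beta subunit gene of ATP synthase, ATP5F1A to ATP5F1B, was 0.866 ± 0.021 (SD, n = 3) in CTRL and 0.948 ± 0.025 in hnCD16, and FR1 and FR2 had 0.687 ± 0.018 and 0.667 ± 0.014. The proteins were not measured here.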
